A study of Mus musculus with 9 samples.

Results

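The immunity-related GTPases (IRGs) described here were the 8 mouse genes Irgm1, Irgm2, Igtp, Iigp1, Tgtp1, Tgtp2, Ifi47 and Gm12250, chosen by name as rows of the deposited tables whose Ensembl identifier maps to one of these symbols. All 8 were found among the 55655 rows. RNA-seq had been performed on bone marrow-derived macrophages (BMDMs) from wild type C57BL/6 mice aged 6 to 8 weeks, with 3 libraries in each of 3 groups. M0 macrophages were bone marrow cells grown for 7 days with 10 ng/mL M-CSF, the growth factor that drives macrophage differentiation. M1 macrophages had in addition received LPS, a component of the bacterial outer membrane, at 100 ng/mL and the cytokine interferon-γ (IFN-γ) at 20 ng/mL. The M1 + PBM group received the same 2 stimuli together with photobiomodulation (PBM), irradiation with near-infrared light at 6 mW/cm2 for 7 minutes every 12 hours, and the RNA of these cells and of their unirradiated M1 controls was taken at 12 hours. The M1 controls were also kept in the dark box. All groups shared the M-CSF differentiation, and the time at which M0 RNA was taken was not given. The 2 questions addressed were how far the family differed between resting and stimulated macrophages, and whether PBM altered it in stimulated ones.

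IRGs are large GTP-binding proteins that IFN-γ induces in mouse cells. In an infected cell the effector members load onto the vacuole that holds a parasite such as Toxoplasma or a bacterium such as Chlamydia and help to break it, whereas the regulator members sit on the cell's own membranes and keep the effectors inactive there. The 2 classes are told apart by their nucleotide-binding loop, in which the regulators (GMS proteins, here Irgm1, Irgm2 and Igtp) have methionine where the effectors (GKS proteins, here Iigp1, Tgtp1, Tgtp2, Ifi47 and Gm12250) have lysine.

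The bases that set the classes apart are shown for the members on chromosome 11, read from the longest open reading frame of GENCODE transcripts on GRCm38, with the codon of the distinguishing residue in capitals. The stretch lay at chr11:48866761-48866784 (minus strand, exon 3 of 3) in Irgm1, at chr11:58219695-58219718 (plus strand, exon 3 of 3) in Irgm2 and at chr11:58206275-58206298 (plus strand, exon 3 of 3) in Igtp. It lay at chr11:48987667-48987690 (minus strand, exon 2 of 2) in Tgtp1, at chr11:49059534-49059557 (minus strand, exon 2 of 2) in Tgtp2, at chr11:49095648-49095671 (plus strand, exon 2 of 2) in Ifi47 and at chr11:58187981-58188004 (plus strand, exon 1 of 1) in Gm12250.
Irgm1, Irgm2 and Igtp: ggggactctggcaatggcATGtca
Tgtp1 and Tgtp2: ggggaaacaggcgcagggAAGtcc
Ifi47: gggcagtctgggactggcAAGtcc
Gm12250: ggggagacaggggcagggAAGtcc
The 3 regulators were identical over these bases, and each listed effector had the lysine codon. Iigp1, whose bases are not shown, also had AAG there.

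Members differed widely in how alike they were over the whole open reading frame. Tgtp1 and Tgtp2 differed at 4 of 1245 aligned bases and their full transcripts at 6 of 2810, so fragments could be shared between them and their separate FPKM values are uncertain. The next most alike pair was Irgm2 and Igtp, with 73.2% identical bases. In the GENCODE annotation Irgm2 and Igtp also share 162 exonic bases on the same strand, Ifi47 shares 111 with Olfr56 on the same strand, and Tgtp1 shares 223 with Gm12185, an IRG-like gene. Libraries were made with a strand-specific kit, but whether strand was used in counting was not given. Gm12250 (also Irgb10) is annotated as a processed pseudogene with 1 transcript in GENCODE, and its open reading frame spans 417 codons.

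Upstream stretches are shown because all members were higher in both stimulated groups than in M0. RefSeq promoter windows (GRCm38.p6, 250 bases before to 50 after the start) were available for 7 members, and were searched on both strands for the GAS element of IFN-γ-activated genes (TTCNNNGAA) and for the IRF-binding ISRE core (GAAANNGAAA). A GAS was present in 5 members and an ISRE in 6, against 8.30% and 3.44% of all 32851 windows. Ifi47 held neither, and Iigp1 had no window. Motif letters are in capitals, and all bases printed lie before the start.
Irgm2, chr11:58214898-58214926, plus strand: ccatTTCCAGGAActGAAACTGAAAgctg
Igtp, chr11:58199507-58199535, plus strand: ccatTTCTAGGAActGAAACTGAAAgctg
Tgtp1, chr11:48992310-48992338, minus strand: ccatTTCCAGGAAtcGAAACTGAAAccta
Tgtp2, chr11:49064269-49064297, minus strand: ccatTTCCAGGAAtcGAAACCGAAAccta
Gm12250, chr11:58183780-58183808, plus strand: tgTTCTCAGAAatctgcTTTCAGTTTCat
Irgm1, chr11:48871431-48871454, minus strand: tcaaGAAATAGAAACCGAAActga
In Irgm2, Igtp, Tgtp1 and Tgtp2 the GAS began 11 bases before the ISRE, a spacing chosen after the members were seen. Only 5 of the 32851 windows held a pair so spaced, these 4 and that of Gm12185. The GAS began 75, 45, 88 and 81 bases before the start in these 4 genes, and 61 bases before it in Gm12250, where the ISRE letters lie on the other strand and a further ISRE began 91 bases before the start. Irgm1 had 2 ISRE matches that overlap each other and no GAS. The printed stretches of Irgm2 and Igtp are nearly the same, as are those of Tgtp1 and Tgtp2, so the member counts are not of independent windows. These are letter matches and were not tested as binding sites.

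Expression was deposited by the authors as FPKM, fragments scaled by transcript length and by the mapped total of the library, so that levels can be set side by side between genes. The steps between low values correspond to 30560000 to 42080000 fragments per library, and upper estimates put 2583 to 14115 fragments behind each member's value in the 6 stimulated libraries. All 8 macrophage identity genes (Adgre1, Csf1r, Cd68, Itgam, Mertk, Fcgr1, Spi1, Lyz2) were at an FPKM of at least 1 in every group. No lymphoid, dendritic or erythroid marker reached an FPKM of 1 in any library. Of 9 neutrophil markers at most 2 did in a group. These were S100a8, at 6.90 to 27.2 in M1, 4.94 to 14.5 in M1 + PBM and 1.13 to 2.11 in M0, and Camp, at most 2.80. S100a9 and Ly6g were listed at 0 in every library, and why S100a9 was at 0 beside S100a8 was not tested. The M1 activation list of 8 genes summed to 2543 to 2927 in M1, 1737 to 2456 in M1 + PBM and 17.4 to 335.6 in M0. Most of the stimulated sums came from Acod1, at 1548 to 1690 in M1 and 1121 to 1535 in M1 + PBM. In bulk RNA, fewer cells of a type cannot be told apart from less RNA per cell.

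The M0 library labelled replicate 3 stood apart from the other two, and touched every member. All 8 members were at least 1 unit of log2(FPKM + 1) above the mean of M0 replicates 1 and 2 there, as were 4.20% of the 15157 rows that reached an FPKM of 1 in any M0 library. Tgtp2 was 17.8-fold and Ifi47 2.65-fold above that mean. The inflammatory cytokine gene Tnf was 14.7-fold and the interferon-induced chemokine Cxcl10 49.9-fold above it, while Ifngr1 was 1.20-fold above it. The stromal list of 8 genes summed to 197.3 in this library and to no more than 28.1 in any M1 or M1 + PBM library, with Col1a1, a fibroblast collagen, at 122.8 against 4.44 and 3.44 in M0 replicates 1 and 2. The part of other cells or stimulation in this library's IRG levels was not tested. Differences from M0 are therefore given with and without it.

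All 8 IRGs were far higher in M1 macrophages than in M0 macrophages. The M0 libraries were deposited in a table of their own, so differences from M0 are described without a test. Every M1 library lay above every M0 library for all 8 members, which held for 15.6% of 13915 rows (those reaching an FPKM of 1 in 3 or more of the 9 libraries). The difference was at least 3 on the log2(FPKM + 1) scale for all 8 members and for 1.65% of rows. Its median was 4.32 over the members and -0.34 over all rows. Scaling by median-of-ratios moved these medians to 4.69 and 0.04.

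The regulators were already expressed in M0 macrophages. Irgm1, which protects host membranes and whose loss makes mice unable to control several intracellular bacteria, had FPKM values of 5.28, 5.11 and 17.9 in M0 replicates 1 to 3, 69.4, 80.5 and 78.8 in M1, and 67.4, 79.5 and 78.8 in M1 + PBM. Irgm2, its relative at the Golgi apparatus, had 5.14, 4.97 and 15.1 in M0, 74.4, 76.8 and 99.9 in M1, and 73.9, 80.4 and 80.9 in M1 + PBM. Igtp, the regulator found on the endoplasmic reticulum and lipid droplets, had 4.66, 3.96 and 13.1 in M0, 101.1, 105.3 and 160.4 in M1, and 86.2, 101.5 and 112.5 in M1 + PBM. For each of the 3 the M0 values lay clear of both stimulated groups, whose ranges overlapped each other. The M1 minus M0 differences were 3.10 ± 0.54 for Irgm1, 3.32 ± 0.49 for Irgm2 and 4.04 ± 0.52 for Igtp (log2(FPKM + 1), SE, n = 3 per group). Without M0 replicate 3 they were 3.64, 3.79 and 4.51.

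Among the effectors, Iigp1 and both Tgtp genes were close to absent in M0 replicates 1 and 2. Iigp1, the effector studied most at the Toxoplasma vacuole, had FPKM values of 0.011, 0.020 and 1.66 in M0, 30.1, 22.7 and 45.3 in M1, and 26.2, 22.0 and 30.2 in M1 + PBM. At most about 1.07 and 2.14 fragments lay behind the 2 lowest of these values, and no fold is given against them. Tgtp1 had 0.154, 0.216 and 1.56 in M0, 41.4, 34.6 and 68.8 in M1, and 39.0, 35.1 and 47.3 in M1 + PBM. Its near copy Tgtp2 had 0.332, 0.249 and 5.16 in M0, 106.1, 99.6 and 160.4 in M1, and 103.6, 100.6 and 129.4 in M1 + PBM. These 3 genes had the lowest M0 levels of the family. Their M1 minus M0 differences were 4.53 ± 0.54, 4.95 ± 0.47 and 5.79 ± 0.78 on the log2(FPKM + 1) scale (SE, n = 3 per group), and with a pseudocount of 0.1 they were 6.78, 6.50 and 7.01. The 2 Tgtp rows summed gave a difference of 6.02.

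The other 2 effectors had detectable M0 levels. Ifi47 (also Irgd) had FPKM values of 3.09, 1.98 and 6.72 in M0, 115.4, 130.4 and 62.5 in M1, and 62.4, 65.9 and 60.1 in M1 + PBM. Gm12250, an effector known for opening the membranes of intracellular bacteria, had 2.32, 1.42 and 12.0 in M0, 81.7, 89.7 and 86.7 in M1, and 86.4, 89.7 and 89.5 in M1 + PBM. Ifi47 varied most between M1 replicates for its level after Iigp1 and Tgtp1, while the 6 stimulated values of Gm12250 spanned only 81.7 to 89.7. The M1 minus M0 differences were 4.44 ± 0.52 for Ifi47 and 4.20 ± 0.75 for Gm12250 (log2(FPKM + 1), SE, n = 3 per group). Without M0 replicate 3 they were 4.83 and 4.94.

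**Figure D1:**
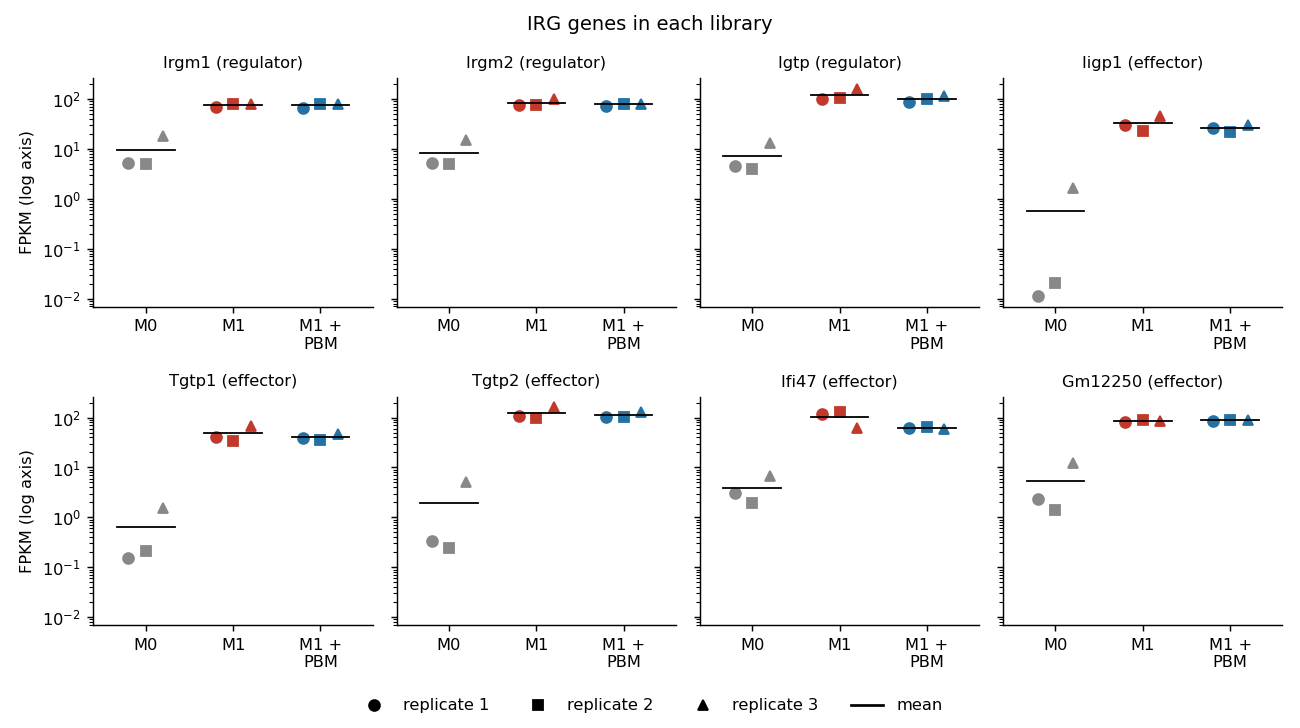
FPKM of each IRG gene in the 9 libraries on a log axis, with 1 point per library, the marker shape giving the replicate number and the line the mean of 3. Every stimulated library lies above every M0 library, and M0 replicate 3 is the highest M0 library in each panel.

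M1 + PBM macrophages showed the same separation from M0. All 8 members lay above every M0 library, against 15.9% of rows, and all 8 differed by at least 3 on the log2(FPKM + 1) scale, against 1.34% of rows. The median difference was 4.03 over the members and -0.27 over all rows. These differences use the M0 libraries that also enter the M1 values. Even set against M0 replicate 3 alone, the M1 + PBM mean was higher by 2.004 for Irgm1, the smallest difference, and by 4.18 for Tgtp2, the largest.

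**Figure D2:**
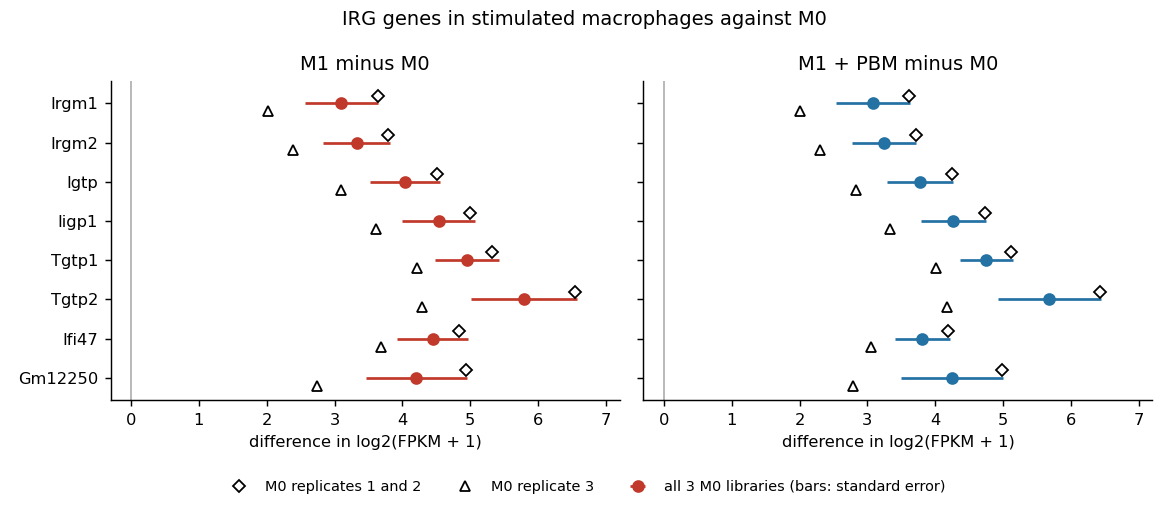
Difference in mean log2(FPKM + 1) from M0 for each IRG gene, in M1 (left) and M1 + PBM (right), against all 3 M0 libraries (filled points, bars of 1 SE), M0 replicates 1 and 2 (diamonds) or M0 replicate 3 (triangles). In M1 the differences run from 3.10 for Irgm1 to 5.79 for Tgtp2 against all 3, and from 2.02 to 4.29 against replicate 3.

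The order of the levels changed with stimulation. In M0 the 3 regulators led in each library, in the order Irgm1, Irgm2, Igtp, although the ranges of all neighbours overlapped across libraries. In M1 the order of mean FPKM was Igtp (122.3), Tgtp2 (122.0), Ifi47 (102.8), Gm12250 (86.1), Irgm2 (83.7), Irgm1 (76.2), Tgtp1 (48.3) and Iigp1 (32.7), and only Irgm1 and Tgtp1 were neighbours whose values did not overlap. The lowest Irgm1 value there was 69.4 and the highest Tgtp1 value 68.8. Ifi47 ranged from first to seventh between the M1 libraries. In M1 + PBM the order was Tgtp2 (111.2), Igtp (100.1), Gm12250 (88.6), Irgm2 (78.4), Irgm1 (75.2), Ifi47 (62.8), Tgtp1 (40.5) and Iigp1 (26.1). There Tgtp2 overlapped Igtp, Igtp overlapped Gm12250 and Irgm2 overlapped Irgm1, and the other neighbours were separate.

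The regulators therefore made up most of the family in M0 and less of it in the stimulated groups. The summed FPKM of the 3 regulators divided by that of the 5 effectors was 2.55, 3.61 and 1.70 in M0, 0.654, 0.696 and 0.800 in M1, and 0.717, 0.834 and 0.763 in M1 + PBM. Each M0 library was above 1 and each stimulated library below it. The fall below 1 rested on Tgtp1 and Tgtp2, which together reached at least 134.2 in every M1 library and at least 135.7 in every irradiated one. With both left out of the effector sum, every stimulated library would lie above 1, though still below every M0 library. With all 5 effectors kept, the mean ratios were 2.62 ± 0.96, 0.717 ± 0.075 and 0.771 ± 0.059 in M0, M1 and M1 + PBM (SD, n = 3 each). The log2 ratio was higher by 0.11 in M1 + PBM than in M1, a difference within the replicate spread (exact permutation test, two-sided p = 0.4, n = 3 per group, where 0.1 is the smallest p that 3 against 3 allows).

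**Figure D3:**
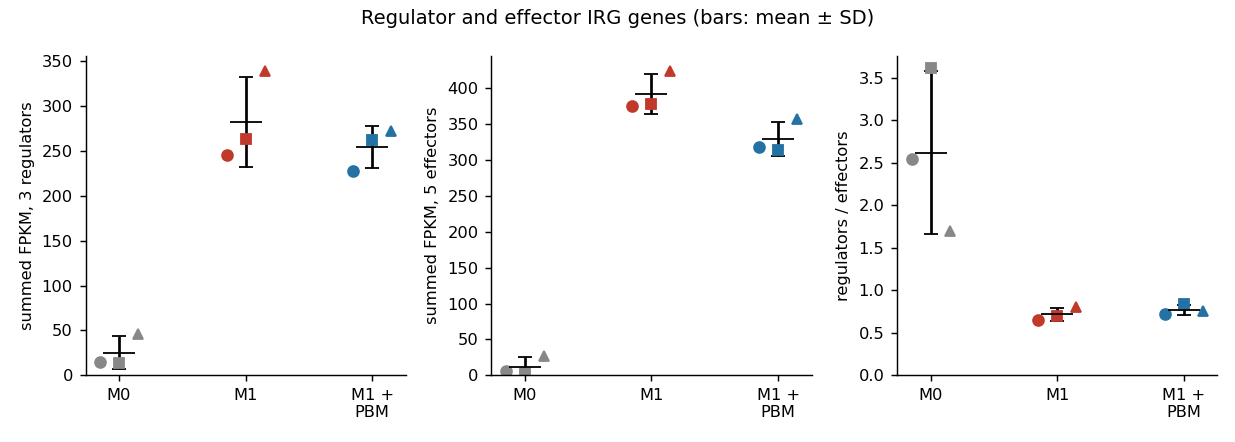
Summed FPKM of the 3 regulators (left) and the 5 effectors (middle) and their ratio (right) in each library, with the mean and SD of 3. The ratio lies between 1.70 and 3.61 in M0 and between 0.654 and 0.834 in the 6 stimulated libraries.

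No IRG gene passed the thresholds with PBM. The study's thresholds ask for an unadjusted p no greater than 0.05 and a log2 fold change of 1 or more in size. By them 0 of the 8 members were called in the limma comparison of M1 + PBM with M1, against 0.261% of the 12238 rows tested (0.0245% higher and 0.237% lower). At these cut-offs the study itself reported more genes, most of them higher with PBM, by a test that it does not name. No member passed a Benjamini-Hochberg adjusted p of 0.05, which 1 row did (0.00817%), the unannotated locus MSTRG.11630, and no member had an unadjusted p of at most 0.05 in this fit, which 4.44% of rows had. The ranges of the 2 groups overlapped for every member, whereas they did not overlap for 11% of rows. The means of 7 of the 8 members were lower with PBM, as were 34.4% of all rows, and the median log2 fold change was -0.15 over the members and 0.06 over all rows. All 8 means were lower with median-of-ratios scaling, and 3 of 8 without M1 replicate 3. Library-to-library spread here is that between 3 samples per group, for which separate animals were not stated.

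The intervals were narrow for some members and wide for others. The log2 fold change of FPKM + 1, M1 + PBM minus M1, was -0.02 for Irgm1 with a 95% interval from -0.30 to 0.26, and 0.04 for Gm12250 with one from -0.18 to 0.26 (limma, adjusted p = 0.975 and 0.950). For Irgm2 it was -0.08 (-0.42 to 0.25) and for Tgtp2 -0.11 (-0.61 to 0.39). For these 4 genes, and for Igtp at -0.26 (-0.76 to 0.23), the interval excluded a 2-fold change in either direction. Iigp1 was at -0.27 (-0.88 to 0.35) and Tgtp1 at -0.20 (-0.83 to 0.43), with intervals that also stop short of 2-fold. The 2 Tgtp rows summed changed by -0.14 (limma, adjusted p = 0.928).

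Ifi47 had the largest fitted difference of the family. The mean FPKM of M1 libraries was 102.8 ± 35.7 and that of irradiated ones 62.8 ± 2.91 (SD, n = 3 each). The log2 fold change was -0.64, with a 95% interval from -1.29 to 0.02 (limma, unadjusted p = 0.054, adjusted p = 0.900). The difference lay in replicates 1 and 2, at -0.88 and -0.97, and was -0.06 in replicate 3, where the M1 library (62.5) was within the range of the M1 + PBM libraries. Without M1 replicate 3 the log2 fold change was -0.96 with an unadjusted p of 0.00019 (limma, adjusted p = 0.381), which remains under the fold threshold. It was -0.43 without M1 replicate 2. With the replicate as a block the unadjusted p was 0.027 (limma, adjusted p = 0.577). Under median-of-ratios scaling it was 0.024 (limma, adjusted p = 0.991). Olfr56, the olfactory receptor gene whose exons overlap it, had FPKM values of 10.9, 7.31 and 3.51 in M1 and 11.6, 6.72 and 11.3 in M1 + PBM, and the 2 rows summed gave -0.52.

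**Figure D4:**
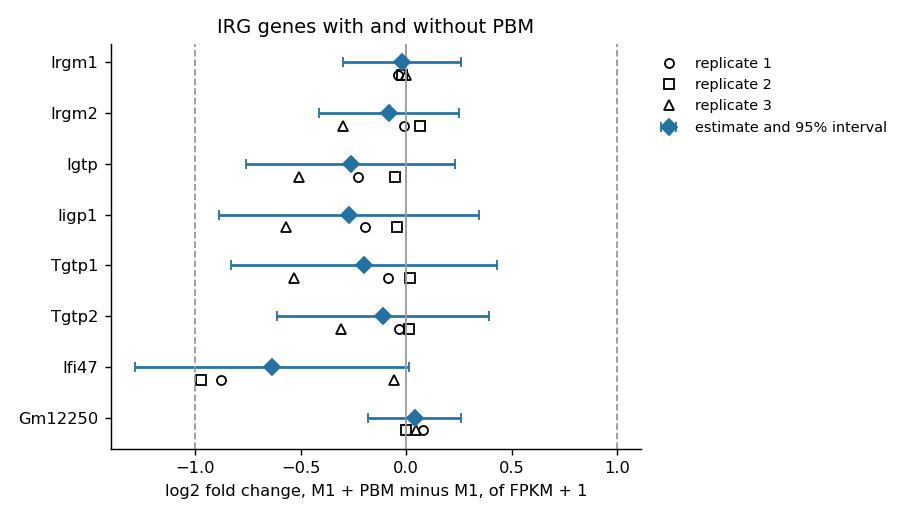
Log2 fold change of FPKM + 1, M1 + PBM minus M1, for each IRG gene, with the limma estimate and 95% interval (blue) and the difference within each replicate number (open markers). Dashed lines mark a 2-fold change in each direction. All 8 intervals include 0, and replicate 3 of Ifi47 (-0.06) lies away from replicates 1 and 2.

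M1 replicate 3 set the pattern among the stimulated libraries for 5 members. Irgm2, Igtp, Iigp1, Tgtp1 and Tgtp2 were highest of the 6 stimulated libraries in M1 replicate 3, where 15.0% of all rows tested had their maximum. Irgm1, Ifi47 and Gm12250 were highest in M1 replicate 2, where 16.3% of rows had theirs. No member had its maximum in an M1 + PBM library, where 12.6%, 19.4% and 26.5% of rows had theirs in replicates 1 to 3. For Gm12250 this rested on 89.713 in M1 replicate 2 against 89.711 in M1 + PBM replicate 2. Without M1 replicate 3 the differences of Irgm1, Irgm2, Tgtp1 and Tgtp2 turned to 0.0056, 0.051, 0.082 and 0.10, and the median over the members was 0.027, so the sign of these 4 small differences changed with that library. The neutrophil list of 9 genes was also highest there, at a summed FPKM of 28.1, of which S100a8 made up 27.2, while it ranged from 8.94 upward in M1 and from 6.44 to 15.2 in M1 + PBM. Its part in the IRG levels was not tested. The 5 effectors summed to 374.7, 377.0 and 423.7 in M1 and to 317.5, 313.3 and 356.5 in M1 + PBM, which did not overlap (difference in log2 -0.25, exact permutation test, two-sided p = 0.1, n = 3 per group, the smallest p possible). Without Ifi47, the other 4 effectors summed to 259.3, 246.6 and 361.3 in M1 and to 255.2, 247.4 and 296.4 in M1 + PBM, which overlapped. The 3 regulators summed to 244.9, 262.5 and 339.1 in M1 and to 227.6, 261.4 and 272.2 in M1 + PBM, which overlapped (difference in log2 -0.14, exact permutation test, two-sided p = 0.5, n = 3 per group). Within replicate numbers both sums were lower with PBM in 3 of 3 pairs, which these unpaired tests do not use.

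Likeness between members was described over the same 6 stimulated libraries, which were deposited in 1 table and differ in depth. Igtp followed the mean log2(FPKM + 1) of the members most closely (Pearson r = 0.96, n = 6 libraries), and Tgtp1, Tgtp2, Iigp1 and Irgm2 had r of 0.89, 0.88, 0.88 and 0.86. Irgm1 (0.39), Ifi47 (-0.05) and Gm12250 (-0.13) did not follow it. That mean includes the member itself, so each of these values is partly set in advance. Tgtp1 and Tgtp2 correlated at 0.98, and fragments shared between them would also give a high value. The 5 other rows most alike to the family mean, Gm44673, Baz1a, Jazf1, Il1rap and Gm7367, had r from 0.986 to 0.988, and like it had their maximum of the 6 in M1 replicate 3. These rows were picked for the highest r among all rows tested and are not part of the mean.

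The upstream IFN-γ pathway was described from a list of 21 genes with a row. Of its 20 genes tested, 0 were called by the study's thresholds, 1 was higher and 1 lower at an unadjusted p of at most 0.05, against 2.99% and 1.45% of rows, and the median log2 fold change was -0.04. The higher one was Ifngr1, the ligand-binding chain of the IFN-γ receptor, with FPKM values of 19.8, 22.4 and 25.3 in M0, 8.73, 7.42 and 7.57 in M1, and 12.4, 10.8 and 13.9 in M1 + PBM. Its log2 fold change with PBM was 0.58 ± 0.12 (SE, limma, unadjusted p = 0.0026, adjusted p = 0.900), and the stimulated groups did not overlap. The lower one was Socs1, an IFN-γ-induced inhibitor of the receptor's kinases, with 16.3, 12.7 and 13.3 in M1 and 7.15, 8.78 and 7.40 in M1 + PBM, a log2 fold change of -0.78 ± 0.13 (SE, limma, unadjusted p = 0.00073, adjusted p = 0.809). Socs1 was between 0.145 and 0.449 in M0.

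Like Ifngr1 and Socs1, the other parts of the receptor pathway did not pass the thresholds. Ifngr2, the second receptor chain, had 61.0 ± 4.17 in M1 and 62.1 ± 6.20 in M1 + PBM, and the receptor kinase gene Jak2 had 73.3 ± 8.63 and 61.6 ± 11.5 (FPKM, SD, n = 3 each). Irf1, the factor that binds ISRE elements after IFN-γ, had 49.4 ± 16.8 and 44.3 ± 3.005, and Irf8, a macrophage lineage factor, had 9.93 ± 4.33 and 10.4 ± 3.16. Ptpn2, a tyrosine phosphatase gene, had the third lowest p of the list, at 7.22 ± 0.37 and 5.77 ± 1.17 (limma, unadjusted p = 0.084). Every M1 library lay above every M0 library for 15 of the 21 genes, against 15.6% of rows.

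The guanylate-binding proteins (GBPs), GTPases that IFN-γ induces beside the IRGs and that act at the same vacuoles, all had lower means with PBM. This held for 10 of 10 tested (9 with quantile normalization and 8 without M1 replicate 2), against 34.4% of all rows. The median log2 fold change was -0.29 (-0.08 without M1 + PBM replicate 3), but 0 were called by the study's thresholds. Only Gbp4 had an unadjusted p of at most 0.05, against 1.45% of rows that were lower at this p. Gbp4 had 13.6, 15.9 and 23.7 in M1 and 11.1, 10.8 and 10.9 in M1 + PBM, which did not overlap, with a log2 fold change of -0.62 ± 0.20 (SE, limma, unadjusted p = 0.018, adjusted p = 0.900). Gbp3 followed at -0.38 ± 0.20 (unadjusted p = 0.10) and Gbp10 at -0.48 ± 0.31 (unadjusted p = 0.17). With the block, Gbp3 had an unadjusted p of 0.047 (limma, adjusted p = 0.577). The most abundant GBP, Gbp2, was at -0.06. All 11 GBPs with a row were higher in every M1 library than in every M0 library, against 15.6% of rows, with a median difference of 4.09 in log2(FPKM + 1), beside 4.32 for the IRGs. These 11 include Gbp2b, which was at 0 in every M0 library and at most 0.51 in M1. It did not reach the FPKM asked of the rows in that share.

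Other IRG-like genes and the vacuole machinery showed no call either, against 0.261% of rows. Of the IRG-like list 8 of 9 genes were tested, and 3 were higher and 5 lower with PBM, against 34.4% of all rows lower. None had an unadjusted p of at most 0.05, which 4.44% of rows had. The 3 with the lowest p were Gm5431 at 0.48 ± 0.28, Gm4841 at -0.33 ± 0.33 and 9930111J21Rik2 at 0.11 ± 0.17 (log2 fold change, SE). Gm5431 had 46.4, 25.3 and 32.7 in M1 and 58.1, 53.6 and 34.1 in M1 + PBM, which overlapped. Gm12185, the gene whose promoter window holds the same spaced pair as those of the 4 members, was higher in M1 (mean FPKM 4.04) than in M0 (0.425) and had a log2 fold change of -0.11 with PBM. Of the 20 genes for Atg8 conjugation, on which IRG loading depends, and for vacuole ubiquitin adaptors and ligases, 9 were higher and 11 lower. Their median log2 fold change was -0.01, and 34.4% of all rows were lower. The 3 with the lowest p there were the ubiquitin adaptor Sqstm1 at -0.27 ± 0.12 (unadjusted p = 0.066), the conjugation factor Atg5 at 0.27 ± 0.15 (unadjusted p = 0.13) and the Atg8 homologue Map1lc3b at -0.24 ± 0.16 (unadjusted p = 0.18). Their M1 minus M0 median was 0.07, and 8 of the 20 lay higher in every M1 than in every M0 library, against 15.6% of rows.

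**Figure D5:**
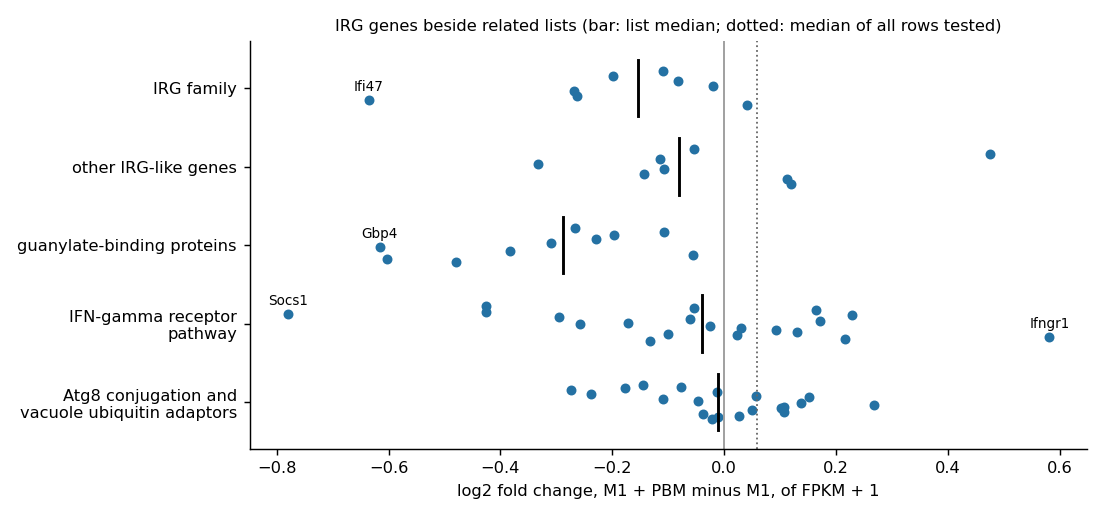
Log2 fold change of FPKM + 1, M1 + PBM minus M1, for each tested gene of the IRG family and the 4 related lists, with 1 point per gene, a bar at the list median and a dotted line at the median of all rows tested (0.06). The list medians are -0.15, -0.08, -0.29, -0.04 and -0.01 from top to bottom, and Socs1 lies farthest below 0 and Ifngr1 farthest above it.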

How the data were processed

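Values were deposited by the authors as FPKM, with the 3 M0 libraries in a table apart from the other 6. The study's methods name Cufflinks methods, the submitters' processing notes name Bowtie 0.12.2 and mm9 without their roles, and the annotation is not given in the sources used here. Symbols, overlaps and open reading frames came from GENCODE M21 (GRCm38), and promoter windows from RefSeq (GRCm38.p6), not from the authors' build. M1 + PBM and M1 libraries were set against each other with limma 3.58.1 in R 4.3.3 (lmFit, eBayes with trend, all 6 libraries) on log2(FPKM + 1), over rows reaching an FPKM of 1 in 3 or more libraries, after a check on simulated data. This pseudocount understates changes of low genes. Depth was inferred from steps in low FPKM values, of which 23.8% to 25.5% fell within 0.05 fragments of a whole number (10% if spread evenly), so no counts were recovered. M0 entered no test. Same-numbered M1 and M1 + PBM libraries deviated together across rows (r = 0.157, 0.469 and 0.462, and -0.491 to 0.033 between different numbers). Deviations within a group cancel out, so the values between different numbers are not independent of those within numbers. No label states that the samples are paired. The main fit and the permutation tests were therefore unpaired, and a fit blocked by replicate number was also made. Genes named were all members, Ifngr1, Ifngr2, Jak2, Irf1, Irf8 and Socs1, the 3 genes of lowest p in each related list, the 5 rows most alike to the family mean and the label checks. An item withheld from the text is not reported here. Gbp2, Gm12185 and Olfr56 were named after their values were seen. Members and lists were chosen with earlier results of these data known.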

Additional observations from a re-analysis of the deposited data

How the results depend on the processing

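No member was called by the study's thresholds, and no gene of the 4 related lists, under any of the 15 alternatives: the replicate block, quantile normalization, median-of-ratios scaling, all rows kept, only rows averaging an FPKM of 5 or more, a pseudocount of 0.1, a variance prior with no trend, Tgtp1 and Tgtp2 summed, Ifi47 and Olfr56 summed (chosen after seeing the data) and each of the 6 libraries left out. The lowest adjusted p of a member was 0.381. The median log2 fold change of the members ranged from -0.30 to 0.027 with a library left out. Over all rows, 32 were called, 75 with the smaller pseudocount, and 27 to 89 with a library left out (69 without M1 replicate 2, 89 without M1 + PBM replicate 2). The block raised the rows with an unadjusted p of at most 0.05 from 543 to 988 and changed no call of a member. Directions turned for Gm12250 with median-of-ratios scaling (log2 fold change -0.038) and for 4 members with a library left out, where the lowest and highest values were -0.085 and 0.056 for Irgm1, -0.16 and 0.051 for Irgm2, -0.40 and 0.082 for Tgtp1, and -0.24 and 0.10 for Tgtp2. All 4 turned without M1 replicate 3, and Irgm1 also without M1 replicate 2 or M1 + PBM replicate 1. The cause was not tested. Against M0, the members' median ranged from 3.95 to 4.88 for M1 and from 3.64 to 4.49 for M1 + PBM with a library left out. The log2 regulator to effector ratio differed by 0.04 to 0.19 between M1 + PBM and M1 with a library left out.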
